A study of Mus musculus with 8 samples.

Results

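The glucocorticoid receptor genes and their response genes were described here as a set of 9 genes out of the 31053 genes counted: the receptors Nr3c1 and Nr3c2, the activating enzyme Hsd11b1, and the response genes Fkbp5, Sgk1, Tsc22d3, Per1, Zbtb16 and Pdk4. They were chosen by name, and each had UMIs in both libraries. RNA was measured in single GFP+ cells from the dentate gyrus of male Nestin-GFP mice, 8 weeks old, taken on day 15 after either a sham craniotomy (Control) or a controlled cortical impact on 1 side of the brain (TBI). Both groups carried the same transgene, in which control elements of nestin drive GFP, and both had anesthesia and an opened skull, so neither group was without surgery. GEO lists 4 animals per condition, whereas the methods of the study give other numbers, and dentate gyri were combined within a condition before GFP+ live cells were sorted. Each condition was therefore 1 library, no test between the conditions was possible, and the 95% intervals given below cover counting error only.

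After filtering, 3049 Control cells with 24629521 UMIs (unique molecular identifiers, 1 per captured RNA molecule) and 5036 TBI cells with 31503415 UMIs were used, with medians of 6928 and 5663 UMIs per cell. Clusters rebuilt from the counts were named from marker genes, which gave 1678 oligodendrocytes, 83 oligodendrocyte precursors (OPC), 327 NSC (dividing neural stem cells), 1446 astrocyte-like cells, 567 RG-like (radial glia-like) cells, 1663 neuron-like cells, 832 endothelial cells, 884 mural cells and 127 microglia. A total of 478 cells stayed unnamed. In their own type, 6 of 10 RG-like markers and 7 of 10 NSC markers had their highest level, against 10 of 11 for neuron-like cells, 9 of 10 for astrocyte-like cells, 7 of 8 for OPC and all markers of the other types. The RG-like cells included 205 cells led by Neurod4 and Eomes, and the microglia included 44 cells led by Ccl5, Lyz2 and Gzma. Mural cluster c11 and oligodendrocyte cluster c14 each drew 86.5% of their cells from the TBI library, so that in these clusters library and cell state could not be told apart. The libraries shared 3 barcodes.

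Glucocorticoids are adrenal steroid hormones that cross the cell membrane and bind receptors held ready by heat shock proteins. The bound receptor moves to the nucleus and binds DNA at glucocorticoid response elements, where it changes the transcription of nearby genes. In the hippocampus, glucocorticoids are known for feedback control of the stress axis and for their effects on adult neurogenesis. Levels below are CPM, the UMIs of a gene in every 1000000 UMIs, after summing UMIs over cells of a type in a library and leaving Malat1 out of the total. The assay counts 1 tag at the 3′ end of a molecule.

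From the promoter table of RefSeq (GRCm38.p6), 15 starts of 7 members were taken, each with 250 bases before and 50 bases after the start. No start was taken for Nr3c1 or Zbtb16, and whether the table holds one for Nr3c1 was not tested. The windows were searched on both strands for the full glucocorticoid response element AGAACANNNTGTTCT, for its core GNACANNNTGTNC, for the half-site AGAACA, for the cAMP response element TGACGTCA and for the E-box CACGTG, the site bound by clock proteins. The core and 2 half-sites lie within the full element. Of 32851 promoters of this length, 3 (0.00913%) held the full element, 156 (0.475%) the core, 6233 (19.0%) a half-site, 588 (1.79%) a cAMP response element and 2349 (7.15%) an E-box. Of the 7 members searched, Sgk1 alone held the full element, at 1 of its 6 starts, from 189 to 175 bases before the start. The same window held an E-box (246 to 241 bases before the start) and a half-site (242 to 237) that overlap, and 2 other Sgk1 windows held a half-site. Per1 and Fkbp5 each held an E-box in 1 window, and Tsc22d3 held a half-site in 1 of 3. No cAMP response element was found at the 15 starts, and the single windows of Nr3c2, Hsd11b1 and Pdk4 held none of the motifs. A match describes letters in these windows and says nothing about binding. The stretches from 250 to 51 bases before the start are shown for the members with a full element or an E-box, 5′ to 3′ on the gene's strand, with matched motifs in capitals, at chr10:21993640-21993839 (plus strand), chr11:69098699-69098898 (plus strand) and chr17:28486200-28486399 (minus strand). GENCODE annotates no exon in these stretches.
Sgk1, start 5: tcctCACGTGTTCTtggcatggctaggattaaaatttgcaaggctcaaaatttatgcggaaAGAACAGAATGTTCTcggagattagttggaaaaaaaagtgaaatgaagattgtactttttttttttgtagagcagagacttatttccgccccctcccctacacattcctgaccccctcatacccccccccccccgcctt
Per1, start 1: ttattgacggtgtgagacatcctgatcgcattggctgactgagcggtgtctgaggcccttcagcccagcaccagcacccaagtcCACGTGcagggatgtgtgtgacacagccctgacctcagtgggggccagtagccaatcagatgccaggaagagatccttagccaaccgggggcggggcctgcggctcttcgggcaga
Fkbp5: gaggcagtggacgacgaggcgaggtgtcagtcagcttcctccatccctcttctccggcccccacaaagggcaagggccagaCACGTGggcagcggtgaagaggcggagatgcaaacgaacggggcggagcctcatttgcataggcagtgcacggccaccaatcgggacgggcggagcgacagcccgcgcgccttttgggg

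Nr3c1, which encodes the glucocorticoid receptor, was measured throughout the glia and vessel cells and at far lower levels in the neurogenic lineage. It lies at chr18:39410545-39519421 on the minus strand (GRCm38). Endothelial cells had the highest level, 333 CPM in Control (interval 303 to 365) and 331 CPM in TBI (307 to 356). Oligodendrocytes followed with 254 and 259.8 CPM, and their 3698 UMIs were 50.9% of all UMIs of the gene. Microglia (174 and 216 CPM), mural cells (191 and 194 CPM) and astrocyte-like cells (179.5 and 199 CPM) did not differ beyond their intervals from the neighbour in this order. OPC had 109 and 151 CPM. Below these stood RG-like cells with 32.1 and 34.3 CPM, NSC with 33.3 and 26.5 CPM and neuron-like cells with 13.3 and 15.5 CPM. The level in neuron-like cells over both libraries, 14.6 CPM (12.6 to 16.7), lay below that of each other type. After each cell was thinned to 2000 UMIs, 46.6% of endothelial cells (43.1 to 50.2) and 2.89% of neuron-like cells (2.12 to 3.83) had a UMI of Nr3c1, against 67.1% and 9.26% before thinning.

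Within the lineage, Nr3c1 differed between subtypes found by clustering the lineage cells again, together with the unnamed clusters nearest to neuron-like and astrocyte-like cells (c26 with 135 cells and c34 with 76). In that clustering, c4 (369 cells, nearest to mature astrocytes), c7 (331) and c9 (179) stayed unnamed and are in none of the subtypes. Both c7 and c9 were nearest to late neuroblasts. Mature astrocytes had 186 CPM in Control and 205 CPM in TBI, and stem-like astroglia had 168 and 177 CPM. Radial glia, with 39.1 and 41.9 CPM, and dividing progenitors, with 32.1 and 26.3 CPM, stood far below both. Early neuroblasts had 10.6 and 9.97 CPM. Late neuroblasts had 16 CPM in Control and 6.43 CPM in TBI, from 25 and 12 UMIs, a ratio of TBI to Control of 0.402 (0.184 to 0.830). The unnamed c7 had 12.1 and 9.21 CPM, a ratio of 0.76 (0.331 to 1.76), and c9 had 1 and 9 UMIs. Neurons expressing Reln differed in the other direction from late neuroblasts, with 59.1 CPM in Control and 126 CPM in TBI. Their 14 and 67 UMIs gave a ratio of 2.14 (1.19 to 4.12). These neurons were 115 cells, 29 of them from Control. The study takes its neurons with Syt1 and Reln as likely of another lineage, one that does not arise from neural stem cells. It proposes the same for some of its astrocyte clusters, so the lineage clustering here is wider than the progeny of stem cells.

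Nr3c2 encodes the mineralocorticoid receptor, which binds corticosterone with higher affinity than the glucocorticoid receptor does. The locus is chr8:76899442-77245012 on the plus strand. It was sparse in every type, with 550 UMIs in all, of which 155 were in astrocyte-like cells at 31.3 CPM in Control and 38.1 CPM in TBI. Mural cells had 24.9 and 20.4 CPM, endothelial cells 16.5 and 22.3 CPM, and oligodendrocytes 8.46 and 7.95 CPM. Neuron-like cells had 6.63 CPM in Control and 4.04 CPM in TBI, while RG-like cells had 2.07 and 3.43 CPM and NSC had 2 UMIs in each library. OPC had 17 UMIs in Control (77.3 CPM) and 2 in TBI (5.49 CPM), and 9 of the 17 were in a single cell. The order of astrocyte-like cells and OPC, at 34.0 and 32.5 CPM over both libraries, was within their intervals.

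The balance of the receptors differed by type. For each UMI of Nr3c2, oligodendrocytes had 31.6 UMIs of Nr3c1 (26.3 to 38.3) and endothelial cells had 16.5 (13.0 to 21.3). Mural cells had 8.73 (6.82 to 11.3), astrocyte-like cells 5.52 (4.64 to 6.59) and neuron-like cells 2.83 (2.15 to 3.77). NSC had 36.2 (13.9 to 135) and RG-like cells 11.7 (7.34 to 19.9), from 4 and 19 UMIs of Nr3c2. Microglia had 65.0 (17.6 to 542) from 2 UMIs of Nr3c2, and OPC had 4.16 (2.50 to 7.27), with 1.41 in Control and 27.5 in TBI. In astrocyte-like cells the ratio was 5.74 in Control and 5.24 in TBI, and in oligodendrocytes it was 30.1 and 32.7, so that within each of these types the libraries lay inside the interval of the other. In neuron-like cells it was 2.00 (1.35 to 3.02) in Control and 3.84 (2.59 to 5.86) in TBI, from 78 and 123 UMIs of Nr3c1 and 39 and 32 of Nr3c2. The neurons expressing Reln in the lineage clustering (29 Control and 86 TBI cells) held 14 and 67 UMIs of Nr3c1. They held 10 and 3 UMIs of Nr3c2. Their part in the difference between the libraries was not tested.

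Hsd11b1 encodes the enzyme of the endoplasmic reticulum that regenerates active corticosterone from its inert keto form, and it was the member most restricted to 1 type. The gene spans chr1:193221634-193264075 on the minus strand, and counted genes overlap it on the other strand (4930570N18Rik and Lamb3). Astrocyte-like cells held 2059 of its 2208 UMIs, or 93.3%, with 468 CPM in Control (443 to 495) and 424 CPM in TBI (394 to 455). Its level in the other types ran from 0.491 CPM (NSC in TBI) to 16.6 CPM (mural cells in Control). After thinning, 47.3% of astrocyte-like cells (44.1 to 50.5) had a UMI of it. In neuron-like cells that share was 0.314% (0.102 to 0.731), at median depths of 2610 and 8396 UMIs. Before thinning the shares were 50.5% and 1.26%. Hsd11b1 was among the leading genes of astrocyte clusters c13 and c24, so its spread over astrocyte clusters is only a description. Over both libraries, clusters c24, c13 and c4 had 765, 712 and 561 CPM. Cluster c8, which was led by the choroid plexus gene Ttr, had 231 CPM, cluster c12 had 128 CPM, and cluster c31, which was led by Ass1, Frzb and Hopx, had 116 CPM. In the clustering of the lineage alone, mature astrocytes had 624 CPM in Control and 504 CPM in TBI, stem-like astroglia had 87.6 and 104 CPM, and radial glia had 2.93 and 1.96 CPM. Lineage cluster c4 (369 cells), nearest to mature astrocytes but left unnamed and not among them, had 118 and 109 CPM.

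**Figure D1:**
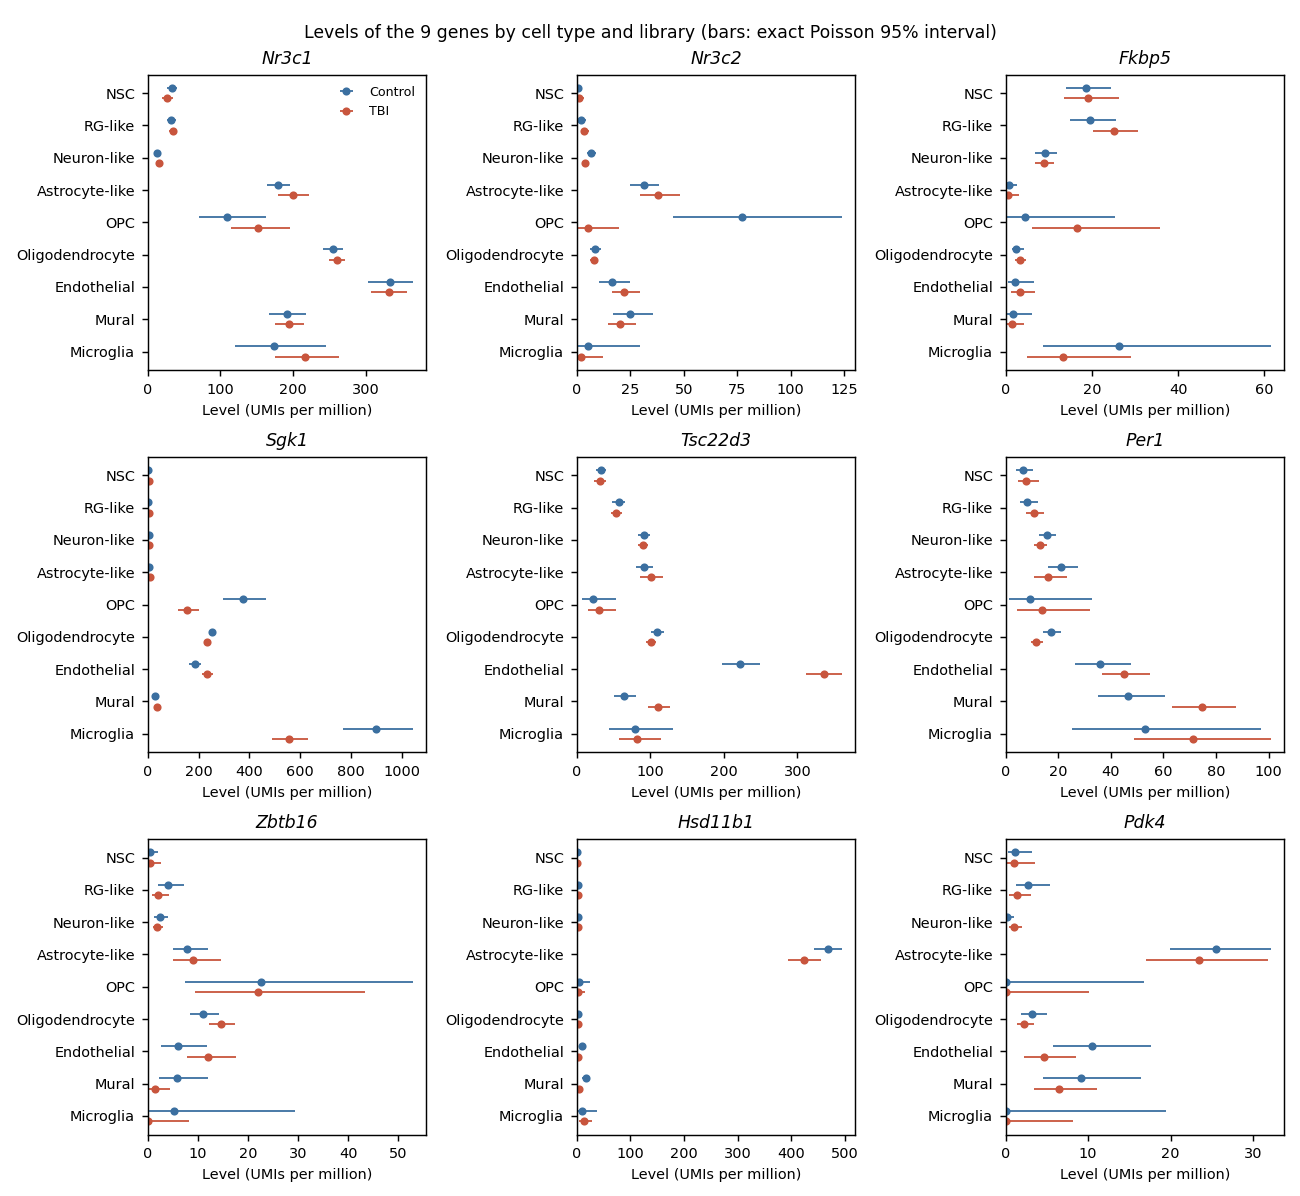
Level of each of the 9 genes (CPM, horizontal axis) in each cell type (vertical axis), with 1 point for the Control library and 1 for the TBI library and bars for the exact Poisson 95% interval. Nr3c1 is lowest in NSC, RG-like and neuron-like cells, Hsd11b1 stands at 468 and 424 CPM in astrocyte-like cells and at no more than 16.6 CPM elsewhere, and Fkbp5 is below 1 CPM in astrocyte-like cells.

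Fkbp5 encodes an immunophilin that joins the receptor's heat shock protein complex and lowers its affinity for hormone. It is itself induced by glucocorticoids, which closes a negative feedback loop. The locus is chr17:28399094-28517527 on the minus strand. Among the types with over 40 of its UMIs it was highest in RG-like cells and NSC, where Nr3c1 was low. RG-like cells had 19.6 CPM in Control and 25.1 CPM in TBI, and NSC had 18.7 and 19.2 CPM. Neuron-like cells had 9.01 and 8.84 CPM. Oligodendrocytes had 2.47 and 3.34 CPM, endothelial cells 2.24 and 3.25 CPM, mural cells 1.66 and 1.49 CPM, and astrocyte-like cells 0.719 and 0.560 CPM from 3 UMIs in all. Microglia (11 UMIs) and OPC (7 UMIs) could not be placed in this order, since their intervals ran from 8.6 to 30.8 CPM and from 4.82 to 24.7 CPM. After thinning, 4.96% of RG-like cells (3.32 to 7.08) and 0.105% of astrocyte-like cells (up to 0.581) had a UMI of Fkbp5, against 21.5% and 0.207% before thinning. Over the 18 profiles of type and library, the log2 levels of Fkbp5 and Nr3c1 had a Pearson correlation of −0.59, and those of Fkbp5 and Nr3c2 one of −0.81. These profiles share libraries and differ in depth, so the values are descriptions.

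Within the lineage, Fkbp5 differed between dividing clusters. Among dividing progenitors, the cluster led by S-phase histone genes (154 cells) had 29.4 CPM in Control and 30.1 CPM in TBI, whereas the cluster led by mitotic genes such as Cdc20 (188 cells) had 5.86 and 8.53 CPM. Radial glia had 23.0 and 30.5 CPM, early neuroblasts 8.71 and 10.4 CPM, and late neuroblasts 12.8 and 10.2 CPM. Stem-like astroglia had 0 UMIs in 130 cells, which allows a level of up to 6.06 CPM, and mature astrocytes had 3 UMIs in 1057 cells. In both libraries the S-phase cluster and radial glia thus stood above the mitotic cluster, and their intervals did not overlap over both libraries (23.3 to 37.2 and 22.6 to 32.4 against 4.09 to 11.2 CPM).

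**Figure D2:**
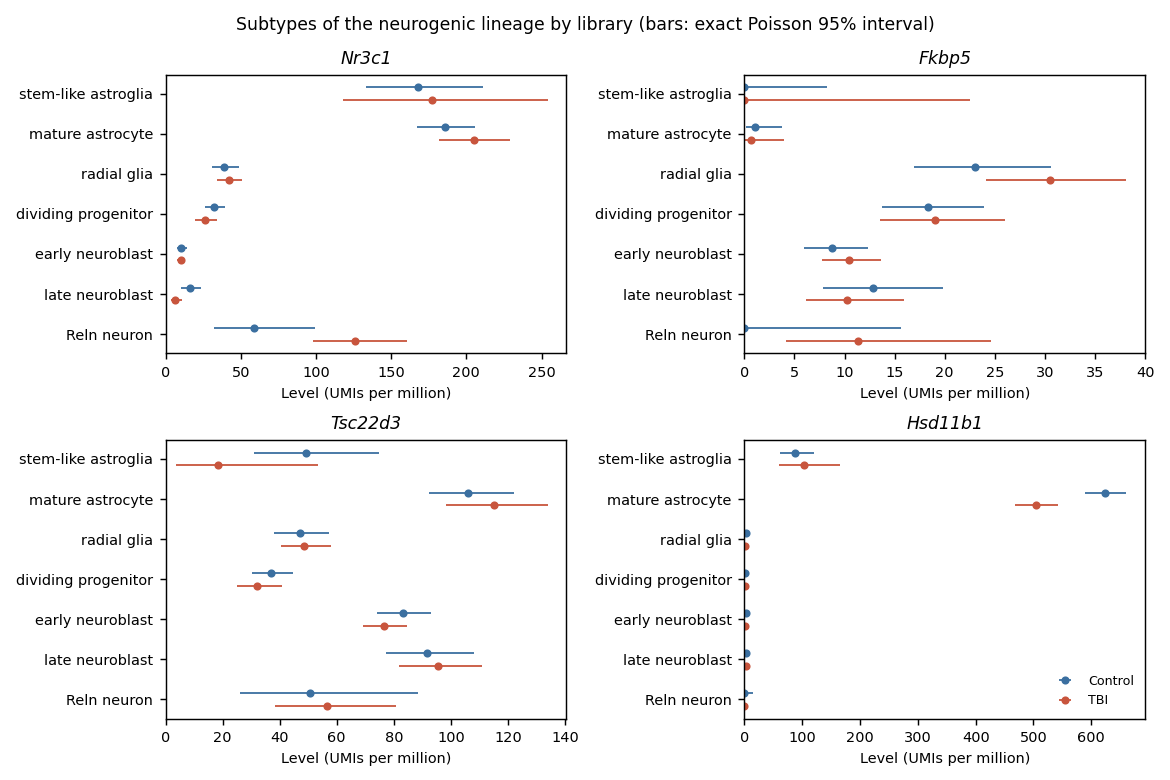
Levels of Nr3c1, Fkbp5, Tsc22d3 and Hsd11b1 (CPM, horizontal axis) in subtypes of the lineage clustering (vertical axis) by library, with exact Poisson 95% intervals as bars. The subtypes include neurons expressing Reln, which the study takes as likely of another lineage. Nr3c1 and Hsd11b1 are high in astroglial subtypes and low in progenitors and neuroblasts, whereas Fkbp5 has 0 UMIs in stem-like astroglia and 23.0 and 30.5 CPM in radial glia.

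Sgk1 encodes a serum- and glucocorticoid-regulated kinase that acts on ion channels and transporters. Of the members searched, it alone held the full response element in a promoter window. The gene spans chr10:21882184-21999903 on the plus strand. Microglia had the highest level, 898 CPM in Control (768 to 1043) and 557 CPM in TBI (489.8 to 630.1). Within the microglia, the Sgk1 UMIs were in cluster c33, with 1063 and 616 CPM, and 2 UMIs were in the cluster led by Ccl5 and Lyz2. Oligodendrocytes had 252 and 233 CPM and held 68.3% of the UMIs of the gene. OPC had 373 and 156 CPM, and endothelial cells had 186 and 233 CPM. Mural cells had 27.4 and 35.8 CPM. In each of the other 4 types the level was below 10 CPM in both libraries. After thinning, 42.7% of microglia (32.7 to 53.2), 28.1% of endothelial cells (25 to 31.4) and 26.0% of oligodendrocytes (23.8 to 28.3) had a UMI, against 0.314% of astrocyte-like cells (0.0648 to 0.914). Before thinning these shares were 53.5%, 45.3%, 51.2% and 0.830%. Oligodendrocyte clusters ranged over both libraries from 68.4 CPM (c15) to 336 CPM (c2), which was led by Il33.

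Tsc22d3 encodes GILZ, the glucocorticoid-induced leucine zipper protein, which restrains inflammatory transcription factors. The locus is chrX:140539528-140600659 on the minus strand. Endothelial cells had 222 CPM in Control (198 to 249) and 336 CPM in TBI (312 to 361), the highest level of any type in both libraries. Oligodendrocytes (109 and 101 CPM), astrocyte-like cells (91.7 and 101 CPM) and neuron-like cells (91.1 and 90.1 CPM) followed. Over both libraries the interval of astrocyte-like cells (86.5 to 105 CPM) overlapped those of both others. Oligodendrocytes (99.1 to 109.7 CPM) lay above neuron-like cells (85.6 to 95.7 CPM). Mural cells had 64.0 and 111 CPM and microglia 79.2 and 82.4 CPM. RG-like cells had 56.9 and 53.6 CPM, NSC 32.9 and 31.4 CPM and OPC 22.7 and 30.2 CPM. In the lineage, Tsc22d3 was lower in dividing progenitors (37.0 and 32.2 CPM) and radial glia (47 and 48.5 CPM) than in early neuroblasts (83.3 and 76.7 CPM) and late neuroblasts (91.5 and 95.4 CPM), an order that held in each library.

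Per1 encodes a repressor of the circadian clock and is also acutely induced by glucocorticoids, and its printed promoter window holds an E-box. The gene spans chr11:69095217-69109960 on the plus strand. Microglia had 52.8 CPM in Control and 71.3 CPM in TBI, and mural cells had 46.6 and 74.6 CPM. Endothelial cells had 35.9 and 45.1 CPM. Each of the other types lay between 6.58 CPM (NSC in Control) and 21.2 CPM (astrocyte-like cells in Control). After thinning, 11.8% of mural cells (9.66 to 14.2) and 2.78% of oligodendrocytes (2.01 to 3.74) had a UMI of Per1, against 19.2% and 10.2% before thinning.

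Zbtb16 and Pdk4 were the sparsest members, with 342 and 228 UMIs in all. Zbtb16, at chr9:48654297-48836222 on the minus strand, encodes the zinc finger repressor PLZF, and Pdk4, at chr6:5483351-5496309 on the minus strand, encodes a kinase that inhibits pyruvate dehydrogenase. Oligodendrocytes held 190 of the Zbtb16 UMIs, at 11.1 CPM in Control and 14.6 CPM in TBI. OPC had 22.7 and 22.0 CPM from 13 UMIs, which overlapped with oligodendrocytes, and astrocyte-like cells had 7.91 and 8.96 CPM. In cluster c28, which held the neurons expressing Reln, Zbtb16 stood at 26.4 and 21.9 CPM, from 16 of the 29 UMIs in neuron-like cells. Astrocyte-like cells held 113 of the Pdk4 UMIs, at 25.5 CPM in Control and 23.5 CPM in TBI. Mural cells (9.15 and 6.47 CPM) and endothelial cells (10.5 and 4.65 CPM) came next for Pdk4, and OPC and microglia had 0 UMIs, which allows up to 6.31 and 5.78 CPM.

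The comparison of TBI with Control asked whether the levels of these genes within a cell type differed 15 days after injury. Of the 81 pairs of member and cell type, 55 had at least 20 UMIs over both libraries. Of these 55, 6 (10.9%) were past 1.5-fold higher in TBI and 8 (14.5%) past 1.5-fold lower. Among all 86386 pairs of gene and type with that many UMIs, 7.19% were past this fold higher and 6.26% lower. By type, members past the fold higher and lower numbered 0 and 0 of 4 in NSC (5.18% and 5.36% of all genes), 1 and 1 of 6 in RG-like cells (6.08% and 3.63%) and 0 and 2 of 8 in neuron-like cells (3.89% and 4.06%). They numbered 1 and 0 of 8 in astrocyte-like cells (3.84% and 5.79%), 0 and 1 of 2 in OPC (21.0% and 14.8%) and 0 and 1 of 9 in oligodendrocytes (4.62% and 3.64%). In endothelial cells they numbered 2 and 1 of 7 (6.15% and 5.01%), in mural cells 2 and 1 of 7 (11.1% and 9.03%) and in microglia 0 and 1 of 4 (13.2% and 13.7%). The interval of the ratio excluded 1 in 4 of the 6 higher and in 4 of the 8 lower pairs. The median log2 ratio over the 55 pairs was 0.03, and over all genes it lay between −0.02 and 0.11 by type, with the value of 0.11 in OPC and 0.09 in mural cells. Nr3c1 was past 1.5-fold in none of the 9 types, with ratios between 0.797 in NSC and 1.38 in OPC. In oligodendrocytes its ratio was 1.02, with an interval on the log2 scale from −0.07 to 0.13, and in endothelial cells it was 0.993, with an interval from −0.18 to 0.16. Fkbp5 was likewise past that fold in none of the 4 types with enough UMIs, with ratios between 0.982 in neuron-like cells and 1.36 in oligodendrocytes.

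**Figure D3:**
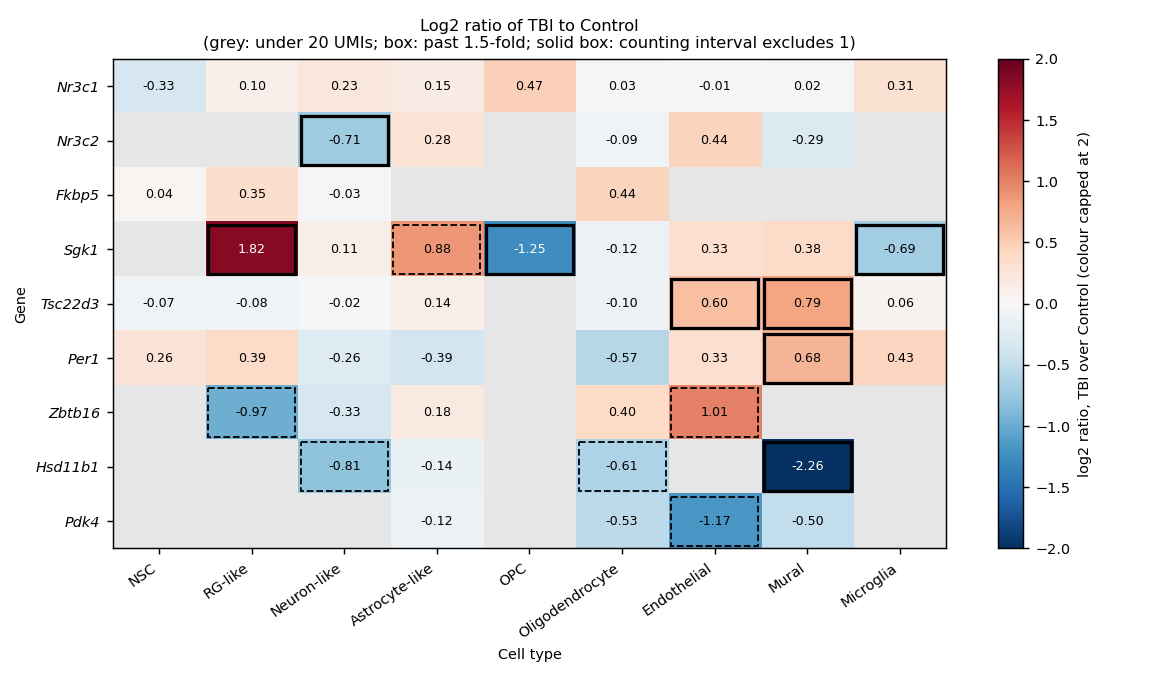
Log2 ratio of TBI to Control for each gene (vertical axis) and cell type (horizontal axis), printed in each cell and shown as colour, which stops at 2 in either direction. Grey marks pairs under 20 UMIs, a box marks a pair past 1.5-fold, and a solid box marks those whose counting interval excludes 1. The row of Nr3c1 has no box, while Tsc22d3 is boxed in endothelial (0.60) and mural cells (0.79).

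Tsc22d3 was higher in TBI in the vessel cells. In endothelial cells it had 297 UMIs at 222 CPM in Control and 722 UMIs at 336 CPM in TBI, a ratio of 1.51 (1.32 to 1.74), where 6.15% of genes were past 1.5-fold higher. The level was higher in TBI in each endothelial cluster, with 205 and 344 CPM in c9, 261 and 369 CPM in c10 and 174 and 289 CPM in c17. In neuron-like cells its ratio was 0.989 with a log2 interval from −0.18 to 0.15, and in oligodendrocytes it was 0.933 with one from −0.25 to 0.05. The hemoglobin genes, markers of red blood cells, summed to 9226 CPM in Control and 1593 CPM in TBI endothelial cells. With hemoglobin, ribosomal protein and mitochondrial genes left out of the total, its log2 ratio was 0.57 against 0.60. Over 20 alternative settings it ran from 1.46 to 1.53 and was past 1.5-fold in 14. Several of the 20, such as those that removed clusters of other types, left endothelial cells as they were and could not change the ratio.

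In mural cells Tsc22d3 had 64.0 CPM in Control (50.5 to 80) and 111 CPM in TBI (96.9 to 127), a ratio of 1.73 (1.33 to 2.28), and 11.1% of genes in mural cells were past 1.5-fold higher. Per1 had 46.6 CPM in Control (35.2 to 60.5) and 74.6 CPM in TBI (63.2 to 87.6), a ratio of 1.60 (1.17 to 2.22). The makeup of the mural cells also differed, since 5 smooth muscle markers summed to 14368 CPM in Control and 4078 CPM in TBI and 5 pericyte markers to 18781 and 26594 CPM, all detected in both. Without clusters c30, c36 and c38, of which c30 was led by smooth muscle genes, the ratio of Per1 was 2.05 (1.31 to 3.32) and that of Tsc22d3 had a log2 value of 0.59. The part of this makeup in the mural ratios given here and below was not tested. The summed level of 14 immediate early and dissociation genes, which respond within minutes to stimulation and to tissue dissociation, was 13692 CPM in Control and 19260 CPM in TBI mural cells. Cluster c11 had the highest such sum, 35861 CPM in Control and 37347 CPM in TBI, and 40 Control and 256 TBI cells. In c11, Per1 had 7 UMIs at 46.4 CPM in Control and 96 UMIs at 114 CPM in TBI. Without c11, Per1 had 49 and 54 UMIs and a ratio of 0.994 (0.663 to 1.49), and the ratio of Tsc22d3 was 1.54 (1.11 to 2.15). Within the 5 mural clusters the ratio of Tsc22d3 lay between 1.26 (c0) and 2.45 (c36), each time with an interval that included 1. Whether the immediate early genes have a part in the result for Per1 was not tested.

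**Figure D4:**
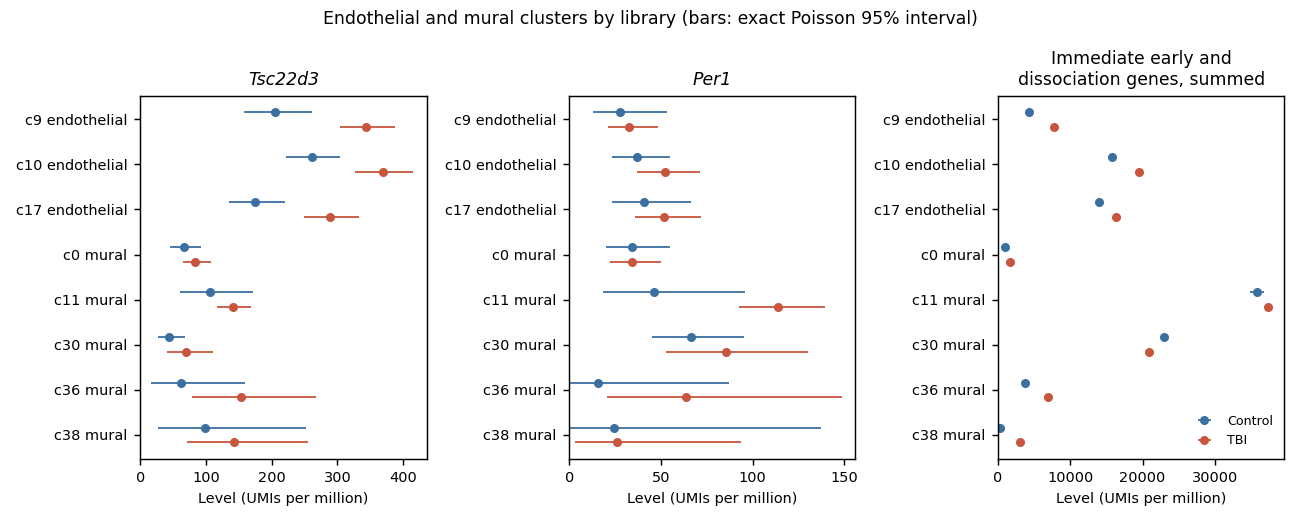
Levels of Tsc22d3, of Per1 and of the summed immediate early and dissociation genes (CPM, horizontal axes) in each endothelial and mural cluster (vertical axis) by library, with exact Poisson 95% intervals as bars. Tsc22d3 is higher in TBI in all 3 endothelial clusters. Per1 stands at 46.4 CPM in Control and 114 CPM in TBI in mural cluster c11, and at 34.2 and 34.0 CPM in c0.

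Sgk1 differed in direction between types. In microglia it had 170 UMIs at 898 CPM in Control and 250 UMIs at 557 CPM in TBI, a ratio of 0.620 (0.508 to 0.758), and 13.7% of genes in microglia were past 1.5-fold lower. Without the cell with the most Sgk1 UMIs in each library, which had 36 in Control and 63 in TBI, the ratio was 0.575 (0.458 to 0.724), and with each cell assigned by its own highest marker score it was 0.746. The Control value came from 38 cells, and the immediate early genes in microglia also had a lower sum in TBI, 24140 against 29893 CPM. In endothelial cells Sgk1 was higher in TBI by less than 1.5-fold, 233 against 186 CPM, with a ratio of 1.26 and a log2 interval from 0.11 to 0.56. In oligodendrocytes the ratio was 0.922, with a log2 interval from −0.22 to −0.02. There the clusters differed, since c14 (325 and 196 CPM) and c16 (178 and 108 CPM) had ratios of 0.602 and 0.608, and the other 4 had ratios from 1.03 to 1.23.

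In OPC Sgk1 had 82 UMIs at 373 CPM in 28 Control cells and 57 UMIs at 156 CPM in 55 TBI cells, a ratio of 0.42 (0.294 to 0.596). A single Control cell held 25 of these UMIs, without the highest cell of each library the ratio was 0.478 (0.321 to 0.710), and as a mean over cells it was 0.746. In OPC 14.8% of genes were past 1.5-fold lower and 21.0% past 1.5-fold higher, the highest shares of any type, in the type with the fewest cells. The 8 oligodendrocyte markers summed to 23292 CPM in Control OPC, with 7 of 8 detected, and to 5612 CPM in TBI OPC, with 8 of 8 detected. The part of oligodendrocyte RNA in the OPC ratio was not tested.

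In RG-like cells Sgk1 had 5 UMIs at 1.72 CPM in Control and 23 UMIs at 6.07 CPM in TBI, a ratio of 3.53 (1.31 to 11.9), where 6.08% of genes were past 1.5-fold higher. Without called doublets it had 5 and 16 UMIs and a ratio of 2.50 (0.874 to 8.72). The 6 endothelial markers summed to 16.9 CPM in Control RG-like cells, with 5 of 6 detected, and to 91.4 CPM in TBI, with 6 of 6 detected. The 8 oligodendrocyte markers summed to 146 and 665 CPM, all detected in both, and the 8 mural markers to 14.1 and 189 CPM, with 7 and 8 detected. The 8 microglial markers summed to 5.86 and 18.0 CPM, with 3 and 8 detected. Their part in the difference was not tested. Sgk1 in astrocyte-like cells was past 1.5-fold higher from 11 and 13 UMIs, with an interval that included 1 (0.761 to 4.54).

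Hsd11b1 in astrocyte-like cells was lower in TBI by less than 1.5-fold, with a ratio of 0.905 and a log2 interval from −0.27 to −0.01. Among mature astrocytes of the lineage clustering the ratio was 0.807 (0.735 to 0.886), and in stem-like astroglia it was 1.18 (0.628 to 2.14). The mature astrocytes joined lineage clusters that the libraries filled differently: c11 stood at 855 CPM with 35.9% of its cells from TBI, and c0 at 462 CPM with 56.3%. Within lineage clusters c0, c5 and c11 the ratios were 0.796 (0.665 to 0.951), 0.869 (0.747 to 1.01) and 0.931 (0.784 to 1.10). In the clustering of all cells, c4 and c13 had ratios of 0.815 (0.705 to 0.941) and 0.774 (0.625 to 0.955), and c24 one of 0.975 (0.808 to 1.17). The choroid plexus genes, all 4 of them detected, summed to 1447 CPM in Control and 222 CPM in TBI astrocyte-like cells, and their part was not tested. In mural cells Hsd11b1 had 20 UMIs at 16.6 CPM in Control and 7 UMIs at 3.48 CPM in TBI, a ratio of 0.209 (0.0748 to 0.516), where 9.03% of genes were past 1.5-fold lower. Cluster c38, which was led by the fibroblast genes Dcn, Lum and Col1a1, held 12 and 6 of these UMIs at 296 and 77.9 CPM. A single Control cell held 8 of the 20 mural UMIs, and without the highest cell of each library the pair fell under the minimum. The 10 astrocyte markers summed to 775 CPM in Control and 274 CPM in TBI mural cells, all 10 detected in both, and their part was not tested. Ratios of Hsd11b1 past 1.5-fold in neuron-like cells (17 and 13 UMIs) and oligodendrocytes (19 and 19 UMIs) had intervals that included 1. Without called doublets Hsd11b1 in neuron-like cells had 6 and 12 UMIs, under the minimum, and its log2 ratio turned from -0.81 to 0.59.

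Nr3c2 in neuron-like cells had 39 UMIs at 6.63 CPM in Control and 32 UMIs at 4.04 CPM in TBI, a ratio of 0.61 (0.37 to 0.999), where 4.06% of genes were past 1.5-fold lower. A single Control cell held 8 of the UMIs, and without the highest cell of each library the ratio was 0.743 (0.437 to 1.26). The neurons expressing Reln in cluster c28 held 9 Control and 2 TBI UMIs. Zbtb16 was past 1.5-fold higher in endothelial cells (8 and 26 UMIs) and lower in RG-like cells (12 and 8 UMIs), and Pdk4 was lower in endothelial cells (14 and 10 UMIs), each with an interval that included 1. Per1 in oligodendrocytes was lower by less than 1.5-fold, 11.6 against 17.3 CPM, with a log2 interval from −0.98 to −0.15.

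Other genes known to respond to glucocorticoids had 136 pairs with at least 20 UMIs over 23 genes, of which 10 (7.35%) were past 1.5-fold higher and 17 (12.5%) lower, with a median log2 ratio of −0.03. Over all genes 7.19% of pairs were past this fold higher and 6.26% lower, which is also the background for the lists below. Of the 17 lower pairs, 6 were in mural cells. There 2 of 19 pairs of these genes were higher and 6 lower, against 11.1% and 9.03% of all genes. Whether these shares differ was not tested. Mt1, a metallothionein that binds zinc and copper, had 576 CPM in Control and 200 CPM in TBI mural cells, a ratio of 0.347 (0.306 to 0.393). It was also lower in neuron-like cells (0.593) and in OPC (0.502), and its relative Mt2 was lower in mural cells (0.531) and NSC (0.657). Cdkn1a, a cell cycle inhibitor, was lower in mural (0.572) and RG-like cells (0.662). Dusp1, a phosphatase that ends MAP kinase signalling, was higher in mural cells, 942 against 525 CPM with a ratio of 1.79 (1.64 to 1.97), and in oligodendrocytes (1.58). Of the response genes named here, Tsc22d3, Per1 and Dusp1 were higher in TBI mural cells and Mt1, Mt2 and Cdkn1a were lower. Dusp1, Mt1, Mt2 and Cdkn1a were named because they were past 1.5-fold, so their directions are only a description.

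The 14 other clock genes had 95 such pairs, 10 (10.5%) higher and 4 (4.21%) lower. Nr1d1, a nuclear receptor that represses the clock, had 99.0 and 188 CPM in mural cells, with a ratio of 1.90 (1.54 to 2.36), and Dbp, a clock output factor, had 74.0 and 132 CPM, with one of 1.79 (1.40 to 2.30). Ciart was higher in endothelial cells (4.49 and 16.3 CPM, ratio 3.62, 1.51 to 10.5) and Per2 in neuron-like cells (2.72 and 5.43 CPM, ratio 2.00, 1.10 to 3.80). For the immediate early and dissociation genes, 29 of 114 pairs (25.4%) were higher and 18 (15.8%) lower. Fos was lower in NSC (0.513), RG-like cells (0.574) and microglia (0.511) and higher in OPC (4.69) and oligodendrocytes (2.98). Egr1 was higher in mural (2.28) and endothelial cells (2.31), in oligodendrocytes (1.89) and in OPC (18.2 and 107 CPM, ratio 5.89, 2.12 to 22.7). Hspa1a was higher in mural cells (2.61), RG-like cells (2.41 and 19.0 CPM, ratio 7.88, 3.64 to 20.3) and oligodendrocytes (1.88). It was lower in endothelial cells (0.603) and microglia (0.465). Ier3 was higher in mural (2.10), RG-like (2.65) and neuron-like cells (1.74). In oligodendrocytes Ier3 stood at 0.176 CPM in Control and 3.92 CPM in TBI, so its ratio of 22.2 had an interval from 3.73 to 904.

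Few pairs of the machinery around the receptor were past 1.5-fold. Of 89 pairs of receptor chaperones, 3 (3.37%) were higher and 2 (2.25%) lower, and of 61 pairs of coregulators, 1 (1.64%) was higher and 2 (3.28%) were lower, against 7.19% and 6.26% over all genes. Nearly all of their pairs reached 20 UMIs (89 of 90 and 61 of 63), and whether these shares differ from those of other genes was not tested. Dnajb1, a heat shock cochaperone, was higher in mural cells (2.41) and lower in NSC (0.589). Hspa8 was higher in OPC (1.85), Hsp90aa1 in microglia (1.56), and Bag1 was lower in OPC (0.633). Chaperones summed to between 7861 and 8475 CPM in NSC, RG-like and neuron-like cells and to 2455 and 2463 CPM in astrocyte-like cells, the lowest sums of any type.

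Genes for steroid handling and other steroid receptors had 21 pairs, 5 (23.8%) higher and 4 (19.0%) lower. Abcb1a, a transporter that exports steroids at the blood-brain barrier, was higher in RG-like cells (0.689 and 5.28 CPM, ratio 7.66, 1.86 to 67.6) and in oligodendrocytes (0.881 and 5.07 CPM, ratio 5.76, 2.29 to 18.6). The endothelial markers summed to 22.2 CPM in Control and 78.7 CPM in TBI oligodendrocytes, and all 6 were detected in both. Abcb1b was higher in RG-like cells (2.94), and Srd5a1, a 5-alpha-reductase, was lower there (0.633). In the gene families of the members, 4 (7.14%) of 56 pairs were higher and 5 (8.93%) lower, among them Tsc22d2 higher in mural cells (1.65), Tsc22d4 lower in OPC (0.604) and Pdk1 higher in astrocyte-like cells (1.61).

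The genes whose log2 levels followed a member most closely over the 18 profiles of type and library were found among 12039 genes with at least 200 UMIs. The profile of Nr3c1 was nearest to those of Dnajc3 (Pearson correlation 0.944), Itsn2 (0.940) and Neat1 (0.935), and that of Nr3c2 to Cyb5a (0.943), Gm42418 (0.909) and Aifm2 (0.897). For Fkbp5 they were Eif4a1 (0.927), Nhp2 (0.922) and Dnajc2 (0.92), and for Hsd11b1 Slc39a12 (0.943), Phkg1 (0.938) and Klhdc7a (0.934). Pdk4 was nearest to Maob (0.932), Gstm1 (0.930) and Aox1 (0.902), and Sgk1 to Pdcd6ip (0.959), Ldlrad4 (0.946) and Pik3cb (0.936). Tsc22d3 was nearest to Map4 (0.904), Slc35f5 (0.876) and Inpp5k (0.875), Per1 to Sipa1 (0.952), Ralb (0.943) and Tacc1 (0.942), and Zbtb16 to Rab4a (0.922), Asb8 (0.881) and Fnta (0.880). No member was among the 3 nearest genes of another. Profiles of the same library or type are not independent, so these values are descriptions.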

How the data were processed

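The deposited counts are whole numbers of UMIs per gene and cell barcode, not normalized, made by the authors with Cell Ranger 3.0.2 on GRCm38/mm10. Dentate gyri were combined by condition and sorted for GFP+ cells after dead cells were removed by propidium iodide. Each table was taken as Control or TBI from the barcodes that the study lists by condition: 356 of 356 Control and 320 of 320 TBI barcodes were in the matching table and 0 in the other. Barcodes with at least 200 genes and a log UMI total no more than 3 median absolute deviations from its library's median were kept. Scrublet (scanpy 1.11.5) called 37 Control (1.21%) and 108 TBI cells (2.14%) doublets, which were left in. Clusters followed the study's methods and came from Seurat 5.3.0 under R 4.3.3 (2000 variable genes without Malat1, 20 dimensions, resolution 3.0, and 0.8 for the lineage). Clusters were named by the highest mean standardized level of markers, and stayed unnamed when low in UMIs with no marker among 10 leading genes or when led by markers of another type. Sums were made in python 3.11.15. Intervals are exact Poisson for levels, exact conditional binomial for ratios and Clopper-Pearson for shares, all at 95.0%. A ratio needed at least 20 UMIs, and 1.5-fold was the size limit. Where shares of cells are given, each cell was thinned to 2000 UMIs and shallower cells were left out, between 2 and 490 per type. All members are named in every type; of each other list, up to 4 genes past 1.5-fold with an interval excluding 1 in the most types; and the 3 genes most like each member. Some genes that this rule names are not reported here. Members, lists and settings were chosen with earlier results of these data known, and every setting that names a cluster by number was added after the values were seen.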

Additional observations from a re-analysis of the deposited data

Results flagged for a closer look

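Sgk1 was set apart because its difference between TBI and Control ran in opposite directions in 3 cell types, each with a counting interval that excluded 1. On the log2 scale TBI over Control was 1.82 in RG-like cells, -1.25 in OPC and -0.69 in microglia. Whether these differences differ from each other was not tested, since each condition was 1 pool. Markers of other cell types moved with 2 of the 3. In RG-like cells the summed endothelial markers were 16.9 CPM in Control and 91.4 CPM in TBI and the oligodendrocyte markers 146 and 665 CPM, and in OPC the oligodendrocyte markers were 23292 and 5612 CPM. The part of any of these in the Sgk1 values was not tested.

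The 478 cells left unnamed (183 from Control, 295 from TBI) entered no comparison by cell type above, though clusters c26 and c34 among them went into the clustering of the lineage, and had 3 members that stood higher in TBI with an interval excluding 1. Nr3c1 had 135 CPM in Control and 203 CPM in TBI, a log2 ratio of 0.59. Sgk1 had 40.4 and 97.4 CPM, from 12 and 57 UMIs, and a log2 ratio of 1.27. Tsc22d3 had 43.8 and 95.6 CPM, from 13 and 56 UMIs, and a log2 ratio of 1.13. Nr3c2 and Per1, the other members with at least 20 UMIs there, had ratios of 1.35 (0.503 to 4.22) and 0.913 (0.40 to 2.21). The share of all genes that stood higher in the same way was not computed for the unnamed cells. The libraries filled the unnamed clusters differently. Cluster c29, nearest to mural cells, drew 81.7% of its cells from TBI, and cluster c27, nearest to endothelial cells, drew 74.6%. Cluster c39, nearest to oligodendrocytes but led by markers of another type, drew 86.7%, with 2 Control and 13 TBI cells. Its median was 11814 UMIs per cell, against 954 to 1424 in the other unnamed clusters. Cluster c34, nearest to astrocyte-like cells, drew 40.8%, c37, nearest to oligodendrocytes, 38.2%, and c26, nearest to neuron-like cells, 50.4%. The part of this makeup in the ratios was not tested.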

How the results depend on the processing

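No paired analysis was possible because the animals of a condition share 1 library with no map from cells to animals. For the same reason no replicate could be left out. Over 20 settings, 7 of them added after the values were seen, 1062 ratios were recomputed, not counting pairs that fell under the minimum. Of these, 1055 stayed within their interval, 4 moved beyond it and 3 reversed. A reversal was counted only for pairs that were past 1.5-fold in the results above. Sign changes of other pairs were not counted and can be among the 1055. Many of the 1055 could not move. Removing a cluster of 1 type left the ratios of the other types as they were, and the minimum of 50 UMIs changed none of the 39 ratios it kept. The levels and the counts of settings given below share this limit. Of 180 levels, 15 moved beyond their interval. Per1 in mural cells had a log2 ratio of -0.01 both without clusters drawing over 80% of their cells from 1 library and without mural cluster c11, and Hsd11b1 in oligodendrocytes had 0.29 as a mean over cells. With a minimum of 50 UMIs, 39 pairs were left, of which 3 were past 1.5-fold higher and 3 lower. The share over all genes was not computed at this minimum. Without the cell with the most UMIs of the gene in each type and library, 6 pairs were higher and 4 lower. Over all settings the pairs past 1.5-fold higher numbered 3 to 7 and those lower 3 to 10. The highest type of Nr3c2 was OPC under 4 settings and that of Per1 mural cells under 3. The ratio of Tsc22d3 in mural cells ran from 1.5 to 1.76 and was past 1.5-fold under all 20 settings. That of Per1 in mural cells was past it under 16, that of Sgk1 in microglia under 19, and that of Nr3c2 in neuron-like cells under 15. The cause of these shifts was not tested, apart from the fewer pairs that a higher minimum leaves. Depth limits the members with few UMIs (Nr3c2, Fkbp5, Zbtb16 and Pdk4), which could show differences only in the types holding most of their counts, and OPC and microglia, which had 28 and 38 Control cells.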

Other observations

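Late neuroblasts, the calretinin-expressing immature neurons of the lineage clustering, also had a lower level of Per1 in TBI. It was 19.8 CPM in Control and 10.2 CPM in TBI, from 31 and 19 UMIs, a ratio of 0.513 (0.274 to 0.938), while early neuroblasts had 10.9 and 11.3 CPM. These late neuroblasts leave out 2 unnamed lineage clusters nearest to them. Of these, c7 (331 cells) had 18.7 and 18.4 CPM of Per1, a ratio of 0.988 (0.537 to 1.85), and c9 had 2 and 5 UMIs. Tsc22d3 in the same late neuroblasts was 91.5 and 95.4 CPM. In endothelial cells, Hsd11b1 had 13 UMIs in Control and 4 in TBI, under the minimum for a ratio. Among the unnamed cells Hsd11b1 had 9 UMIs at 30.3 CPM in Control and 4 UMIs at 6.83 CPM in TBI, also under the minimum.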
